A study of Mus musculus with 18 samples.

Results

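Mature miRNAs were compared between splenic B cells in which the miR-17~92 cluster was deleted (d/d) and B cells in which it was floxed and intact (fl/fl), with 1 small RNA library a side. The 476 miRNAs described here are those whose normalized counts averaged 10 or more over the 3 B-cell libraries, of 756 listed for B cells. The 2 libraries belong to a series of 18 in 8 groups, which also holds B cells that overexpress the cluster (OV, 1 library) and mouse embryonic fibroblasts (MEF). All B-cell and MEF groups carry the strain label Eu-myc, the name of mice in which an immunoglobulin heavy chain enhancer drives Myc in B cells, so fl/fl, d/d and OV share that background. The design text calls the B cells isogenic. How the cluster was deleted or overexpressed, the age of the animals and the number of animals or clones behind each library are not known from the labels. A normalized count is the number of reads of a mature miRNA divided by 1 size factor of its library. The d/d library had 10573018 reads on listed miRNAs, the fl/fl library 10612256 and the OV library 10203586. With 1 library a group there is no replicate check and no test: intervals in brackets are exact 95% intervals of a ratio and cover counting error only. A miRNA is called higher or lower where log2 of (d/d + 1)/(fl/fl + 1) reached 1 or −1, that is 2-fold.

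The miR-17~92 cluster is a polycistron: 1 primary transcript, induced by MYC and amplified in B-cell lymphomas, folds into hairpins that the Microprocessor (Drosha and DGCR8) cuts out and Dicer trims to mature miRNAs. A mature miRNA recognises its targets mainly through its seed, bases 2 to 8, so miRNAs with the same seed can repress overlapping targets. The mammalian genome holds a pair of paralogous clusters, miR-106b-25 and miR-106a-363, whose products repeat most of these seeds. In lymphocytes miR-17~92 promotes survival and proliferation, in part by repressing the pro-apoptotic Bim.

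In the RefSeq annotation of GRCm38.p6 the 6 hairpins of miR-17~92 lie on the plus strand at chr14:115043671-115044506, inside its non-coding host transcript. Those of miR-106b-25 lie on the minus strand at chr5:138165321-138165818, and those of miR-106a-363 on the minus strand at chrX:52741693-52742567. The sequences below, from RefSeq, show which miRNAs carry each seed of the cluster. They are written 5′ to 3′ with the seed in capitals. The seed AAAGUGC is carried by 2 products of the cluster and 4 of its paralogs.
miR-17-5p: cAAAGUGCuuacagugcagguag
miR-20a-5p: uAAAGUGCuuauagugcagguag
miR-106a-5p: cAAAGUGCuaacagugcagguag
miR-20b-5p: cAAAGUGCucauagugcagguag
miR-106b-5p: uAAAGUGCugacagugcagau
miR-93-5p: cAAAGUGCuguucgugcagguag
The seed AAGGUGC is carried by miR-18a-5p of the cluster and its X-linked paralog.
miR-18a-5p: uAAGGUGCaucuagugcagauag
miR-18b-5p: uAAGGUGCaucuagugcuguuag
The seed GUGCAAA was found in miR-19 alone.
miR-19a-3p: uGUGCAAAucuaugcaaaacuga
miR-19b-3p: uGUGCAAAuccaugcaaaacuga
The seed AUUGCAC is carried by miR-92a-3p and by products of both paralogous clusters.
miR-92a-3p: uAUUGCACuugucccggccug
miR-25-3p: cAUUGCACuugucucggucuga
miR-363-3p: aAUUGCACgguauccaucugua
The mature sequences of miR-19b-3p and miR-92a-3p are each encoded a second time, in Mir19b-2 and Mir92-2 of the X-linked miR-106a-363 cluster. Reads of these 2 miRNAs cannot be assigned to one cluster or the other.

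All 11 kept products of miR-17~92 were lower in d/d. Their sum, with the 12th listed product, was 31767 normalized counts in d/d against 1256359 in fl/fl and 4961768 in OV. The d/d library held 2.53% of the fl/fl sum (2.50 to 2.55), and OV held 3.95 times as much. As a share of all reads on listed miRNAs the cluster took 0.378% in d/d against 12.6% in fl/fl and 36.3% in OV. Each kept product was lowest in d/d and highest in OV, so the 3 libraries follow the order their labels give.

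MiR-92a-3p, the most abundant product, had 31033, 1040009 and 4199904 normalized counts in d/d, fl/fl and OV. It was 33.5-fold lower in d/d (33.2 to 33.9), a smaller difference than those of miR-17-5p and miR-20a-5p. MiR-19b-3p, the other product with a second gene on the X chromosome, had 219 (d/d), 4658 (fl/fl) and 16265 (OV) normalized counts. It was 21.3-fold lower (18.8 to 24.1), whereas miR-19a-3p, which has 1 gene and differs from it at a single base outside the seed, was 332-fold lower (180.1 to 693). MiR-19a-3p had 7.94 normalized counts in d/d against 2634 in fl/fl and 11058 in OV. MiR-17-5p, which represses cell cycle inhibitors such as p21, had 141, 56314 and 197829 normalized counts in d/d, fl/fl and OV, a 401-fold lower level in d/d (346 to 467). MiR-20a-5p had 349 (d/d), 148103 (fl/fl) and 521927 (OV) normalized counts, 424-fold lower (386 to 467). The intervals of these 2 products, which share a seed, overlap.

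MiR-18a-5p had 9.53 normalized counts in d/d against 2186 in fl/fl and 4940.4 in OV. Its other arm, miR-18a-3p, had no read in d/d and 744 normalized counts in fl/fl, so it was at least 312-fold lower with 3 counts as the limit that a count of 0 allows in the d/d library. The remaining star arms were also near 0 in d/d: miR-17-3p had 2 reads there against 805 in fl/fl, and miR-92a-1-5p, which marks the chromosome 14 copy of miR-92a, had 6 against 822. MiR-20a-3p had 1 read against 143, and miR-19b-1-5p, the star arm of the chromosome 14 copy of miR-19b, had 1 against 42. MiR-19a-5p did not reach the minimum, with 0 reads in d/d against 2 in fl/fl and 8 in OV. Without miR-92a-3p and miR-19b-3p the cluster summed to 515 normalized counts in d/d and 211691 in fl/fl, a 411-fold difference, and d/d held 0.243% of fl/fl. MiR-92a-3p made up 82.8% of the cluster's sum in fl/fl and 97.7% in d/d. How much of what was left came from the X-linked copies was not tested.

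**Figure D1:**
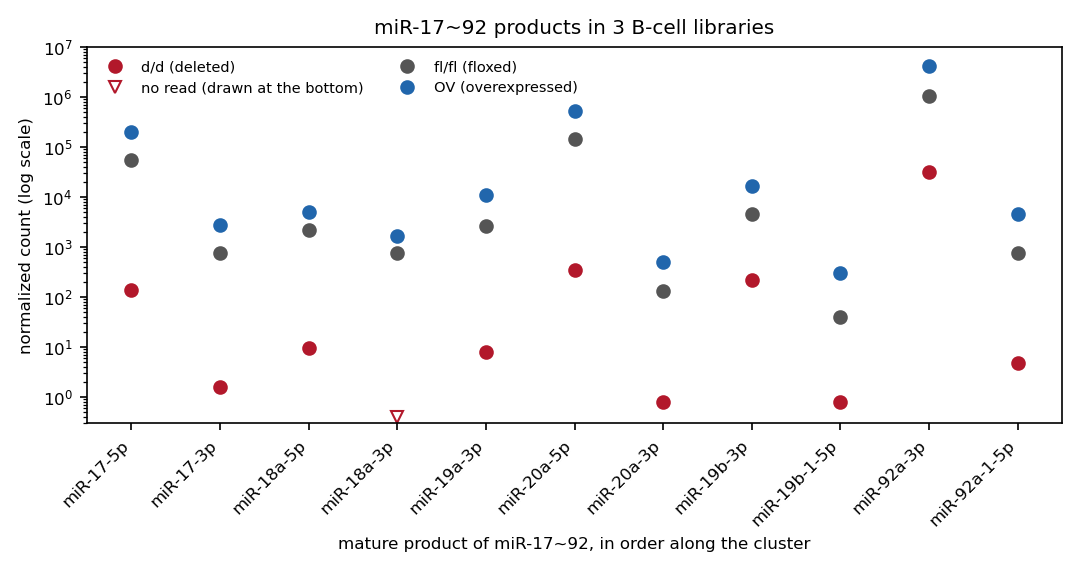
Normalized counts (log axis) of the 11 kept miR-17~92 products in the d/d, fl/fl and OV B-cell libraries, 1 point per library, with the open triangle for miR-18a-3p, which had no read in d/d. Every product is lowest in d/d, and miR-92a-3p keeps the highest level there at 31033.

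No kept paralog product was called lower apart from 1 star arm. Of 6 products of miR-106b-25, which lies in an intron of the replication gene Mcm7, 1 was called higher and none lower, with a median log2 difference of 0.54 against −0.01 over all 476 miRNAs. Over all kept miRNAs 77 were higher (16.2%) and 86 lower (18.1%), so 163 (34.2%) were past 2-fold. MiR-25-3p had 320364, 227619 and 231584 normalized counts in d/d, fl/fl and OV, 1.41 times the fl/fl level. MiR-93-5p had 47308 (d/d), 28748 (fl/fl) and 26486 (OV) normalized counts, and miR-106b-5p 3597 normalized counts in d/d against 2384 in fl/fl and 2367 in OV. All 6 products were above fl/fl in d/d, from 0.27 to 1.58 on the log2 scale, and the member past 2-fold was miR-93-3p, the star arm of miR-93, with 488, 162 and 190.2 normalized counts in d/d, fl/fl and OV. With rlog values, the authors' shrunken log2 scale, it was at 0.98 and the call ends. The cluster's sum was 403289 in d/d against 284979 in fl/fl and 285979 in OV, so fl/fl and OV lay close together and d/d stood 1.42-fold above fl/fl.

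Of 10 listed products of miR-106a-363 that are particular to it, 7 were kept, 1 was called lower and none higher, with a median of −0.25. MiR-106a-5p had 6408 (d/d), 7631 (fl/fl) and 8679 (OV) normalized counts, and miR-20b-5p had 11308 normalized counts in d/d against 12681 in fl/fl and 15147 in OV. MiR-363-3p had 12830.2, 12948 and 12069.7 normalized counts in d/d, fl/fl and OV. MiR-18b-5p, the paralog of miR-18a-5p, had 1519.6 (d/d), 1553 (fl/fl) and 1209.6 (OV) normalized counts. None of these 4 differed by 1.5-fold between d/d and fl/fl. The member called lower was miR-18b-3p, with 106 normalized counts in d/d against 252 in fl/fl and 113 in OV. Its call ends at −0.98 on the log2 scale when scaled by each library's total and at −0.74 with rlog values. MiR-92a-2-5p, the star arm of the X-linked copy of miR-92a, had 946, 1783 and 2798 normalized counts in d/d, fl/fl and OV, and miR-363-5p had 1455 (d/d), 2267 (fl/fl) and 1307 (OV) normalized counts. MiR-106a-3p, miR-19b-2-5p and miR-20b-3p did not reach the minimum, with 2, 1 and 0 reads in d/d and 4, 3 and 13 in fl/fl. In this comparison miR-106a-5p went from 13.5% of the level of the near-identical miR-17-5p in fl/fl to 4559.9% in d/d, so its reads did not follow those of miR-17-5p. The 2 sequences differ at 1 base, and how reads were divided between them is not stated in the labels.

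Summed by seed, part of each seed's level remained wherever a paralog carries the seed. All miRNAs with the seed AAAGUGC summed to 69111 in d/d against 255860.4 in fl/fl and 772435 in OV, and 27.0% of the fl/fl sum was left in d/d. The cluster supplied 79.9% of that seed in fl/fl and 0.709% in d/d, and the 4 paralogs together were 1.33 times as high in d/d. For AUUGCAC the sums were 369846, 1285603 and 4449858, with 28.8% left and the other 4 carriers (miR-25-3p, miR-363-3p, miR-32-5p and miR-92b-3p) at 1.38 times their fl/fl sum. For AAGGUGC the sums were 1529, 3739 and 6150.0, with 40.9% left and miR-18b-5p at 0.979 times its fl/fl level. The miR-19 seed GUGCAAA differed from these: it had no carrier outside miR-19a-3p and miR-19b-3p, its sums were 227, 7292 and 27324, and 3.11% was left. MiR-19 is the product to which the cluster's oncogenic activity in Eu-myc lymphoma has chiefly been ascribed. Over miR-106b-25 the difference between d/d and fl/fl came to 118311 normalized counts, against 1256359 for all of miR-17~92 in fl/fl.

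**Figure D2:**
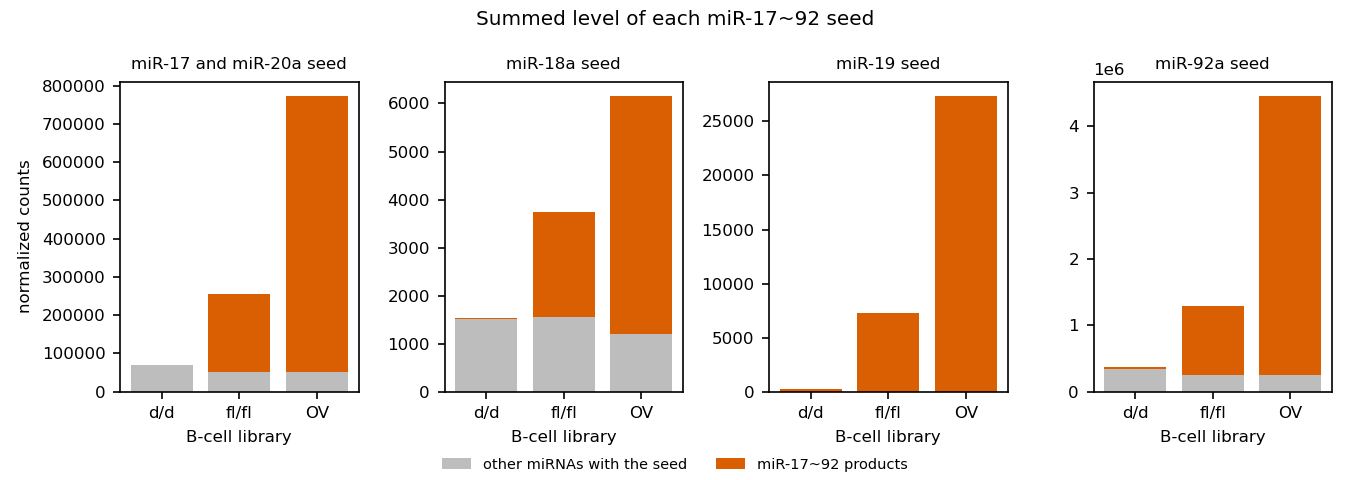
Summed normalized counts (axes starting at 0 and differing between panels) of all listed miRNAs with each miR-17~92 seed, in the d/d, fl/fl and OV B-cell libraries, split into cluster products and other miRNAs. In d/d nearly the whole of the miR-17 and miR-20a, miR-18a and miR-92a seed sums is from other miRNAs, and the miR-19 seed sum is 227.

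Outside the cluster 77 miRNAs were higher in d/d and 75 lower, and 232 of the 476 (48.7%) lay within 1.5-fold. Where the size factors were replaced by each library's total of listed reads, 95 were higher and 65 lower, cluster included, and the median of all kept miRNAs moved from −0.01 to 0.24. The miRNAs past 2-fold were mostly of low level: the median of their mean was 57.6 normalized counts for the higher ones and 72.3 for the lower ones, against 256 for the other 313. Of the 57 miRNAs outside the cluster with a mean of at least 10000, 6 were past 2-fold. The interval of the ratio excluded 1 for 76 of the 77 higher and 85 of the 86 lower miRNAs. The spread between libraries of 1 genotype is unknown. Between OV and fl/fl, 30 of 476 were higher in OV (6.3%) and 30 lower (6.3%). The minimum was set on a mean that includes d/d, so a miRNA that reached 10 normalized counts in d/d alone had to lie above fl/fl. Among those kept, the miR-221 and miR-222, miR-183, miR-99, p53, Dlk1-Dio3 and myeloid lists described below each hold 1 such miRNA. The stromal list holds 2. A miRNA with fl/fl or OV a little above 10 can also owe its mean to d/d, and it then had to lie above fl/fl as well. Cases of this kind were named after their values were seen. MiR-34b-5p of the p53 list had 38.1, 11.3 and 2.68 normalized counts in d/d, fl/fl and OV. MiR-136-3p of the Dlk1-Dio3 list had 28.6 (d/d), 10.4 (fl/fl) and 4.02 (OV) normalized counts. In the same list miR-411-3p had 43.7, 10.4 and 5.36 normalized counts in d/d, fl/fl and OV. MiR-370-3p had 31.8 (d/d), 12.3 (fl/fl) and 5.36 (OV), and miR-382-3p had 53.2 (d/d), 8.48 (fl/fl) and 10.7 (OV). Outside the cluster, GC content had a median of 54.5% in the lower miRNAs that have a RefSeq sequence. It was 47.8% in the 70 higher ones and 47.8% in those past neither limit.

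**Figure D3:**
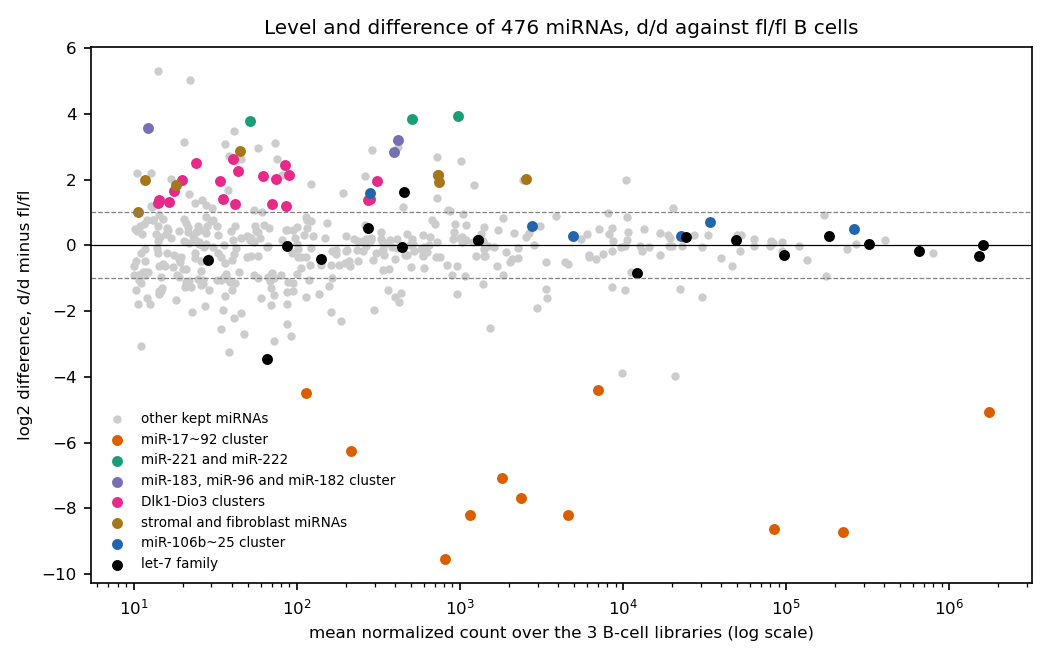
Log2 difference between d/d and fl/fl B cells (dashed lines at 2-fold) against the mean normalized count over the 3 B-cell libraries (log axis) for the 476 kept miRNAs, 1 point per miRNA, with 7 groups in colour. The miR-17~92 products sit lowest, from −9.54 to −4.40, and the miR-221 and miR-222 products are at 3.77 to 3.92.

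Among the miRNAs higher in d/d, the products of miR-221 and miR-222 had the largest differences of any with more than 1000 normalized counts in d/d. These X-linked neighbours share a seed and repress the cell cycle inhibitor p27, and their mature sequences show that shared seed.
miR-221-3p: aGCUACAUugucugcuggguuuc
miR-222-3p: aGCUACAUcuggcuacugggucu
MiR-222-3p had 2523 normalized counts in d/d against 166 in fl/fl and 234 in OV, 15.2-fold higher in d/d than in fl/fl (13.1 to 17.8). MiR-221-3p had 1325, 92.4 and 114 normalized counts in d/d, fl/fl and OV, 14.3-fold higher (11.7 to 17.8). The star arm miR-221-5p had 141 (d/d), 9.43 (fl/fl) and 4.02 (OV) normalized counts. All 3 kept products of this pair were thus higher by nearly the same factor.

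The miR-183, miR-96 and miR-182 cluster, a sensory-organ polycistron that is also induced in activated lymphocytes and targets Foxo1, was higher in all 3 kept products. Their sequences are shown because the seeds are alike but not identical.
miR-183-5p: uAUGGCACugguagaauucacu
miR-96-5p: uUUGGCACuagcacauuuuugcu
miR-182-5p: uUUGGCAAugguagaacucacaccg
MiR-183-5p had 1016 normalized counts in d/d against 108 in fl/fl and 133 in OV, 9.37-fold higher (7.74 to 11.4). MiR-182-5p had 927, 128 and 125 normalized counts in d/d, fl/fl and OV, and miR-96-5p had 42 reads in d/d against 2 in fl/fl and 1 in OV.

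The miR-99, miR-100 and miR-125 families, which include regulators of mTOR signalling (miR-99 and miR-100) and of haematopoietic stem cell number (miR-125), split. Of 7 kept members 4 were higher and 1 lower. The 3 members with the seed ACCCGUA differed in direction, and are shown for the closeness of their sequences.
miR-100-5p: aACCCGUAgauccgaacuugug
miR-99b-5p: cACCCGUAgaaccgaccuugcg
miR-99a-5p: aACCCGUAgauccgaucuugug
MiR-100-5p had 2104 (d/d), 33416 (fl/fl) and 27127 (OV) normalized counts, 15.9-fold lower in d/d (15.3 to 16.5). It had the lowest log2 difference of any kept miRNA outside the cluster. MiR-99b-5p had 2255 normalized counts in d/d against 382 in fl/fl and 398 in OV, 5.91-fold higher (5.32 to 6.57). MiR-99a-5p, given for its shared seed, had 483, 111 and 194 normalized counts in d/d, fl/fl and OV and was also higher. The 3 carriers summed to 4841 in d/d against 33909 in fl/fl and 27719 in OV, so the seed's sum went down with miR-100-5p. MiR-125a-5p, whose gene lies within 10 kb of that of miR-99b on chromosome 17, had 1520.4 (d/d), 237 (fl/fl) and 401 (OV) normalized counts. MiR-125b-5p had 2399 normalized counts in d/d against 1355 in fl/fl and 1762 in OV, within 2-fold.

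Immune miRNAs also differed in direction. Of 4 kept miRNAs linked to NF-kappaB, 1 was higher and 2 lower. MiR-146a-5p, which damps NF-kappaB signalling by repressing Traf6 and Irak1, had 21957, 5514 and 4020.1 normalized counts in d/d, fl/fl and OV, 3.98-fold higher (3.87 to 4.10). MiR-146b-5p, its close homologue on another chromosome, had 4472 (d/d), 11402 (fl/fl) and 15052 (OV) normalized counts, 2.55-fold lower (2.47 to 2.63), and within 2-fold with rlog values (−0.83). MiR-155-5p, which promotes the germinal centre response, had 469 normalized counts in d/d against 597 in fl/fl and 1068 in OV and was within 2-fold. Its star arm miR-155-3p had 23 reads in d/d and 40 in fl/fl, a difference of −1.01 on the log2 scale that fell within 2-fold under 5 alternatives, to −0.45 with rlog values.

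The lymphocyte list was read against the label of these cells. MiR-142a-3p and miR-142a-5p, which blood cells of all lineages carry, were abundant in the 3 libraries and within 2-fold. MiR-142a-5p had 90178, 85053 and 72327 normalized counts in d/d, fl/fl and OV, and miR-142a-3p had 60603 (d/d), 61132 (fl/fl) and 68415 (OV) normalized counts. MiR-181a-5p, which tunes antigen receptor signalling, had 31351 normalized counts in d/d against 25435 in fl/fl and 42896 in OV, and miR-181b-5p had 26940.3, 27719 and 36283 normalized counts in d/d, fl/fl and OV. MiR-150-5p, a miRNA of mature lymphocytes, had the lowest difference of the list and was named after its values were seen, with 8.73 (d/d), 62.2 (fl/fl) and 71.0 (OV) normalized counts. Over the whole list 4 of 18 were higher, 5 lower and 9 within 2-fold, with a median of −0.24, and their summed share of reads was 2.64% in d/d and 2.17% in fl/fl.

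Among miRNAs known to respond to p53, 5 of 8 were higher and 1 lower, with a median of 1.40. MiR-34c-5p, a p53 target that lowers Myc and Bcl2, had 5277 normalized counts in d/d against 1345 in fl/fl and 648 in OV, 3.92-fold above fl/fl (3.70 to 4.16). MiR-192-5p had 6756, 11984 and 14703 normalized counts in d/d, fl/fl and OV, and miR-194-5p had 1146 (d/d), 1439 (fl/fl) and 1658 (OV) normalized counts, both within 2-fold. MiR-194-2-3p, the star arm of one miR-194 gene, was the member called lower, with 49.2 normalized counts in d/d against 130.1 in fl/fl and 103 in OV. That call ends with rlog values, at −0.77.

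Of 5 neural miRNAs 2 were higher and 2 lower. MiR-9-5p, which represses Blimp1 in B cells as well as acting in neural progenitors, had 1132, 16619 and 11983 normalized counts in d/d, fl/fl and OV, 14.7-fold lower in d/d (13.9 to 15.5), and its other arm miR-9-3p had 50.02 (d/d), 206 (fl/fl) and 232 (OV) normalized counts. MiR-129-5p had 679 normalized counts in d/d against 90.5 in fl/fl and 97.8 in OV, and miR-218-5p 92.9, 13.2 and 9.38 normalized counts in d/d, fl/fl and OV, both higher in d/d. Of 6 kept miRNAs of the Hox clusters 2 were higher and none lower. MiR-10a-5p had 108502 (d/d), 206856 (fl/fl) and 210759.7 (OV) normalized counts, just within 2-fold on the low side, and miR-10b-5p, which differs from it by a single central base, had 1199.7 normalized counts in d/d against 446 in fl/fl and 517 in OV, a higher level in d/d that fell within 2-fold with rlog values (0.90).

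Further large differences included several miRNAs with few reads in fl/fl. MiR-676-3p had 79 reads in d/d against 1 in fl/fl and 2 in OV, a ratio of 66.5 whose interval runs from 11.6 to 2661. MiR-1968-5p had 106, 8.48 and 9.38 normalized counts in d/d, fl/fl and OV, and miR-344d-3p had 49.2 (d/d), 4.71 (fl/fl) and 6.70 (OV) normalized counts. Both arms of miR-7683 were higher, miR-7683-5p with 1011 normalized counts in d/d against 127 in fl/fl and 122 in OV and miR-7683-3p with 177, 19.8 and 24.1 normalized counts in d/d, fl/fl and OV. MiR-669c-5p, a product of the cluster in an intron of Sfmbt2, had 88.1 (d/d), 9.43 (fl/fl) and 10.7 (OV) normalized counts. All of these were higher in d/d than in both fl/fl and OV. They were named as the largest rises over fl/fl, so their side against fl/fl was set by that choice. MiR-676-3p, miR-1968-5p and miR-344d-3p also reached the minimum in d/d alone, so they had to lie above OV as well. Only for miR-7683 and miR-669c-5p was the order against OV not set in advance.

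Several abundant families lay mostly within 2-fold. The let-7 family, which restrains Myc, Ras and Lin28, had 16 of 18 kept members within 2-fold, 1 higher and 1 lower, with a median of −0.01. Let-7i-5p had 1637968 normalized counts in d/d against 1643081 in fl/fl and 1557306 in OV, and let-7f-5p had 1311252, 1634912 and 1590674 normalized counts in d/d, fl/fl and OV. Let-7a-5p had 569431 (d/d), 646616 (fl/fl) and 742574 (OV) normalized counts, and let-7g-5p had 335369 normalized counts in d/d against 327917 in fl/fl and 305156 in OV. The family's share of reads was 50.4% in d/d and 46.0% in fl/fl, where the cluster took 12.6%. MiR-26 and miR-29, which MYC represses, had none of 11 members called, with miR-26a-5p at 211751, 230348 and 262997 normalized counts in d/d, fl/fl and OV and miR-29a-3p at 11850.5 (d/d), 6042 (fl/fl) and 6239.8 (OV) normalized counts. In the miR-30 family 2 of 10 were higher and none lower, and its most abundant member, miR-30d-5p, had 268282 normalized counts in d/d against 258887 in fl/fl and 281029 in OV. Of the other most abundant miRNAs, miR-21a-5p had 463477, 412388 and 335548 normalized counts in d/d, fl/fl and OV, and miR-7a-5p had 731854 (d/d), 860045 (fl/fl) and 795872 (OV) normalized counts.

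Mirtrons and capped hairpins are miRNAs that do not need the Microprocessor, and none of 7 kept ones was called. MiR-320-3p, a capped hairpin, had 14321 normalized counts in d/d against 14763 in fl/fl and 14115 in OV, and miR-484, which is made in the same way, had 11661, 8154 and 5958 normalized counts in d/d, fl/fl and OV. MiR-1981-5p had 3073 (d/d), 4372 (fl/fl) and 2681 (OV) normalized counts. The median of this list was −0.11.

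The series title concerns the processing of the primary miR-17~92 transcript, and so other polycistrons were set beside miRNAs with a gene of their own. A miRNA counted as polycistronic where its hairpin lies within 10 kb of another on the same strand. Outside miR-17~92, 47 of 162 polycistronic miRNAs were higher (29.0%) and 21 lower (13.0%), with a median of 0.19. Of 255 monocistronic ones 23 were higher (9.02%) and 48 lower (18.8%), with a median of −0.12. Without the imprinted Dlk1-Dio3 clusters, 27 of 142 polycistronic miRNAs were higher (19.0%) and 21 lower (14.8%), with a median of 0.07.

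Members past 2-fold lay on the same side within each of the larger groups of neighbouring genes. Of 29 neighbour groups with at least 3 kept miRNAs, the miR-17~92 and miR-106a-363 groups left out, none had members past 2-fold on both sides and 12 had no member past 2-fold. In 6 groups every kept member was higher: miR-221 with miR-222, miR-182 with miR-96 and miR-183, miR-99b with let-7e and miR-125a, miR-199a-2 with miR-214, and both Dlk1-Dio3 groups. Of their members, miR-221-5p, miR-96-5p, miR-99b-3p, miR-214-3p and miR-127-5p reached the minimum in d/d alone, so they had to lie above fl/fl. The miR-221, miR-182 and miR-199a-2 groups have 3 kept miRNAs only through such a member. MiR-136-3p, in the Dlk1-Dio3 group of miR-127, also owed its mean to d/d. In the other Dlk1-Dio3 group miR-382-3p owed its mean to d/d, with 53.2, 8.48 and 10.7 normalized counts in d/d, fl/fl and OV. So did miR-411-3p, with 43.7 (d/d), 10.4 (fl/fl) and 5.36 (OV). The shared direction in these groups was thus partly set by the minimum. In 1 group, miR-181d with miR-181c, all 3 kept members were lower, from −1.96 to −1.62. That group lies 29.6 kb from the miR-23a, miR-27a and miR-24-2 group on chromosome 8, on the opposite strand, in which 5 of 6 members were lower. In this second group miR-27a-3p, a brake on adipocyte differentiation, had 1742 normalized counts in d/d against 4404 in fl/fl and 3918 in OV, with its call ending at −0.83 with rlog values. The sixth member, miR-24-3p, is also encoded beside miR-23b and miR-27b on chromosome 13, and it had 10760.4, 11026 and 9255 normalized counts in d/d, fl/fl and OV. In the chromosome 13 group none of 5 members was called, and miR-27b-3p had 89314 (d/d), 81933 (fl/fl) and 71653 (OV) normalized counts. On the X chromosome, the cluster from miR-322 to miR-503, which slows the cell cycle, had 1 of 11 members higher and a median of 0.23, with miR-503-5p at 354 normalized counts in d/d against 354 in fl/fl and 778 in OV.

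**Figure D4:**
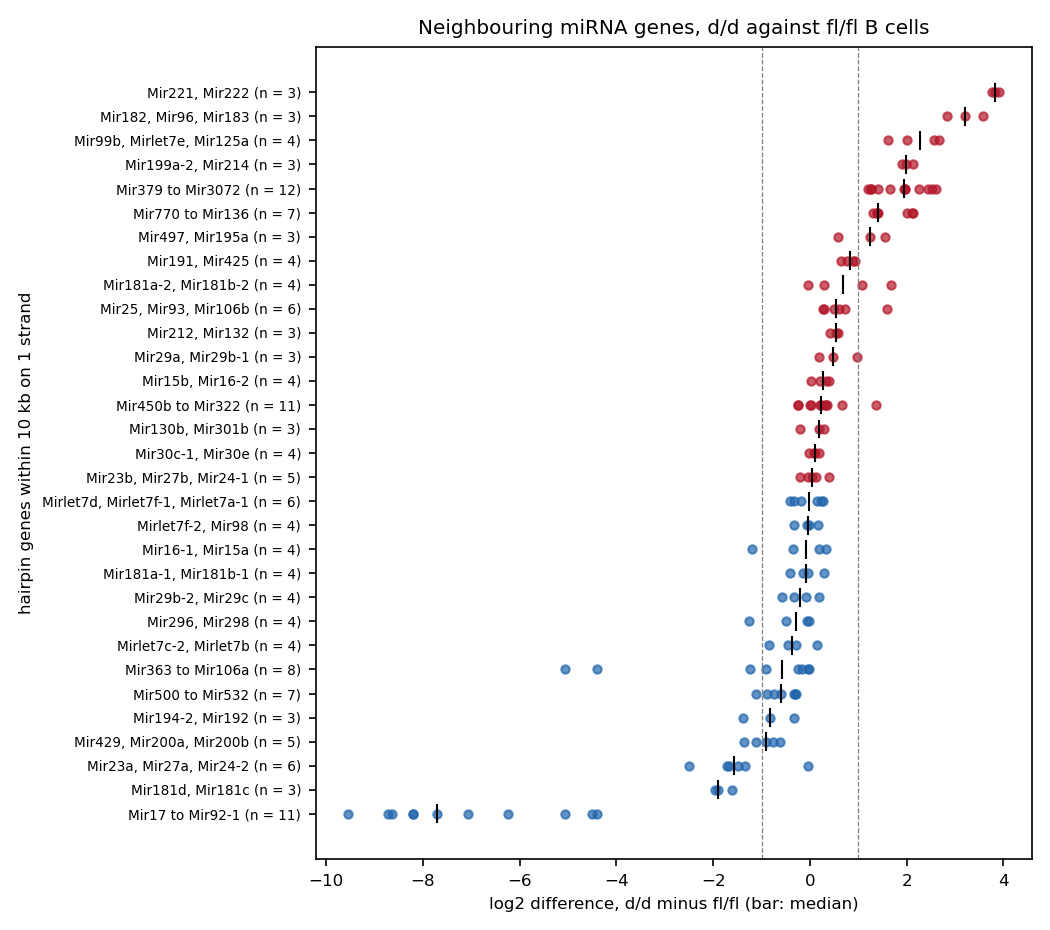
Log2 difference between d/d and fl/fl B cells for each kept miRNA (points, with the group median as a bar) in groups of hairpin genes within 10 kb of each other on 1 strand that hold at least 3 kept miRNAs; dashed lines mark 2-fold, and red and blue mark medians above and below 0. The miR-221 and miR-222 group is highest at a median of 3.83, and the 2 far points of the miR-106a-363 group are miR-92a-3p and miR-19b-3p, which it shares with miR-17~92.

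Arms of 1 hairpin gave a like picture. Of 110 hairpins outside the cluster with both arms kept, 97 had arms within 2-fold of each other, and the median gap between arms was 0.274 on the log2 scale. Both arms were past 2-fold in the same direction in 23 hairpins, higher in 14 and lower in 9, and in opposite directions in none. Among the higher ones, miR-221, miR-99b, miR-145a and miR-127 each hold an arm that reached the minimum in d/d alone. Such an arm had to lie above fl/fl. MiR-34b, miR-382 and miR-411 each hold an arm that owed its mean to d/d and likewise had to lie above fl/fl. These arms were miR-34b-5p, miR-382-3p and miR-411-3p, with 38.1, 53.2 and 43.7 normalized counts in d/d against 11.3, 8.48 and 10.4 in fl/fl. The shared direction of arms was thus partly set by the minimum. Across these 110 hairpins the arms' log2 differences had a Pearson r of 0.81, a description over hairpins of the same 2 libraries. The widest gap was in let-7i, singled out after its values were seen: let-7i-5p differed by −0.00 and let-7i-3p by −3.45. Let-7i-3p had 11.9, 140.5 and 44.2 normalized counts in d/d, fl/fl and OV.

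Markers of other cells were measured in the same libraries, which are bulk samples, so that fewer cells of a type and less RNA per cell cannot be told apart. Of 10 listed stromal and fibroblast miRNAs 8 were kept and all 8 were higher in d/d, with a median of 2.00. Of these, miR-145a-5p and miR-214-3p, named after their values were seen, reached 10 normalized counts in d/d alone, so they had to lie above fl/fl. MiR-143-3p, a smooth muscle and fibroblast miRNA, had 5266 (d/d), 1303 (fl/fl) and 1088 (OV) normalized counts, and miR-199a-5p had 1379 normalized counts in d/d against 366 in fl/fl and 473 in OV. MiR-199a-3p and miR-199b-3p, which are near-indistinguishable in these counts, had 1496 and 1492 in d/d and 341 each in fl/fl. One of the listed members, miR-214-5p, which was named after its values were seen, had 0 reads in fl/fl. The 10 listed members summed to 9837 in d/d against 2389.8 in fl/fl and 2339 in OV, that is 0.117%, 0.0239% and 0.0171% of reads. The myeloid miR-223-5p had 48 reads in d/d against 0 in fl/fl and 3 in OV, at least 13.5-fold higher than in fl/fl with 3 counts as the limit that 0 reads allow. Both miR-223 entries were at 0 in fl/fl. MiR-223-5p, the 1 kept entry, reached 10 normalized counts in d/d alone, so it too had to lie above fl/fl. The erythroid markers were low in each library: miR-451a had 38, 17 and 28 reads in d/d, fl/fl and OV, and none of 3 kept erythroid miRNAs was called. MiR-486a-5p had 123, 67.9 and 153 normalized counts in d/d, fl/fl and OV, and miR-486b-5p had 123 (d/d), 71.6 (fl/fl) and 153 (OV) normalized counts. The endothelial miR-126a-3p had 2688 normalized counts in d/d against 3974 in fl/fl and 7097 in OV, a lower value in d/d within 2-fold.

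The Dlk1-Dio3 clusters on chromosome 12, imprinted and abundant in fibroblasts and brain, were higher in d/d in all 20 kept of 43 listed members, from 1.20 to 2.61 with a median of 1.80. MiR-541-5p had 654, 169.7 and 103 normalized counts in d/d, fl/fl and OV, and miR-379-5p had 498 (d/d), 188 (fl/fl) and 157 (OV) normalized counts. MiR-127-3p had 511 normalized counts in d/d against 195 in fl/fl and 115 in OV, and miR-434-5p had 177, 39.6 and 53.6 normalized counts in d/d, fl/fl and OV. With rlog values miR-379-5p and miR-127-3p were both within 2-fold, at 0.88. The 43 listed members summed to 0.0409% of reads in d/d against 0.0106% in fl/fl and 0.00603% in OV. These 20 are not all members, since the others did not reach the minimum, and miR-127-5p reached 10 normalized counts in d/d alone. MiR-136-3p, miR-370-3p, miR-382-3p and miR-411-3p also owed their mean to d/d, so they too had to lie above fl/fl. The shared direction of the 20 was thus partly set by the minimum. Most members below the minimum also lay above fl/fl, at low counts, such as miR-494-3p with 27.8 normalized counts in d/d against 1.89. Exceptions, named after their values were seen, were miR-431-3p with 0.794 normalized counts in d/d against 4.71 in fl/fl, and miR-369-3p with 6.35 against 8.48.

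Shares of reads were set beside those in fibroblast libraries of the same series. The gain in share from fl/fl to d/d B cells was 0.101 to 2.71% of the share in d/d MEF for the 20 Dlk1-Dio3 miRNAs. It was 0.747 to 3.90% for the 8 stromal ones, 1.01 to 3.45% for the miR-183 cluster and 7.06 to 15.4% for miR-221 and miR-222. It was −25.4 to 6.16% for the miR-99, miR-100 and miR-125 families and −350.0 to 157% for the p53 list, with a median of 16.3%. In the lymphocyte list it ran from −306 to 221963%, the highest for miR-142a-5p with 0.000101% of reads in d/d MEF, and the median was 0.716%. MiR-34c-5p had a gain of 157% and a share of 0.0629% of reads in d/d B cells against 0.0315% in d/d MEF. Outside miR-17~92, the 72 miRNAs higher in d/d B cells and kept in MEF had a median level of 5527 normalized counts in fl/fl MEF. It was 347 for the 269 past neither limit and 65.8 for the 52 lower ones. The part that RNA of other cells has in the higher values was not tested.

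The same deletion was measured with 3 libraries a group in MEF, in a table normalized separately. The labels do not say whether those libraries are separate cultures, so their p-values may measure technical spread. Of 662 miRNAs tested there with limma, 203 were higher in d/d (30.7%) and 183 lower (27.6%). Among the 403 also kept in B cells 73 were higher (18.1%) and 142 lower (35.2%). Of the 72 higher in B cells and kept in MEF, 31 rose in MEF, 23 fell and 18 did not pass the test, and of the 62 lower in B cells, 10 cluster products included, 9 rose, 25 fell and 28 did not pass. Across the 393 shared miRNAs outside the cluster the log2 differences in the 2 cell types had a Pearson r of 0.21, which describes miRNAs and not replicates.

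All 20 Dlk1-Dio3 miRNAs rose in MEF as well, with a median of 2.50: miR-541-5p went from 179517 ± 6637 to 1031017 ± 104185 normalized counts (SD, n = 3 each; limma log2 2.52 ± 0.26 SE, adjusted p = 2.22e-05). The miR-106b-25 paralogs, above fl/fl in B cells, went the other way: 4 of 6 fell in MEF and none rose, with miR-25-3p going from 244549 ± 1838 to 152698 ± 5916 (SD, n = 3 each; limma adjusted p = 5.52e-05). MiR-106a-5p and miR-20b-5p, within 1.5-fold in B cells, fell in MEF, at −3.73 and −2.43 on the log2 scale. The miR-221 and miR-222 products, higher in B cells, fell in MEF in 3 of 3. MiR-222-3p went from 120106 ± 8421 to 72265 ± 1653 there (SD, n = 3 each; limma adjusted p = 0.00116). MiR-34c-5p also fell, from 10567 ± 973 to 5654 ± 601 (SD, n = 3 each; limma adjusted p = 9.81e-05). MiR-146b-5p was lower in B cells and fell in MEF, from 24369 ± 1247 to 8288 ± 1157 (SD, n = 3 each; limma adjusted p = 3.25e-05). MiR-100-5p, lower in B cells, did not pass in MEF, at −0.19 ± 0.12 (limma log2 ± SE, adjusted p = 0.197). With spike-in scaling the median of all MEF miRNAs moved from 0.02 to −0.39, and 147 were higher and 283 lower. B cells and MEF were not tested against each other.

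**Figure D5:**
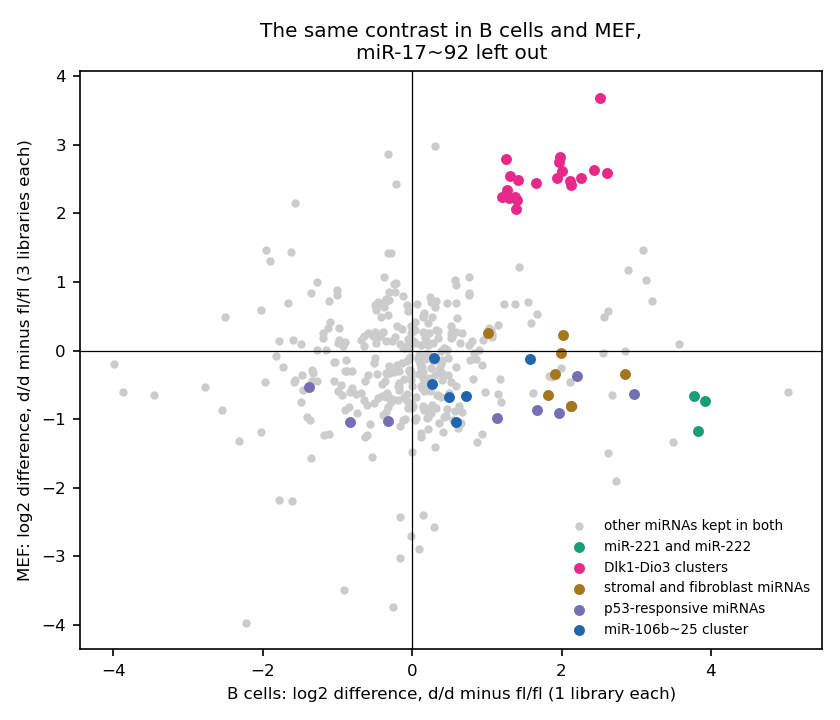
Log2 difference between d/d and fl/fl in B cells (1 library each) against that in MEF (3 libraries each) for the 393 miRNAs kept in both outside miR-17~92, 1 point per miRNA, with 5 groups in colour. The Dlk1-Dio3 miRNAs are above 0 in both cell types, while miR-221 and miR-222 products lie above 0 in B cells and below 0 in MEF.

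The minimum on the mean kept miR-138-5p, miR-712-3p and miR-3103-5p as the 3 members nearest to it, with 8, 7 and 14 reads in d/d and 11, 12 and 8 in fl/fl. Just below it were miR-494-3p, miR-5100 and miR-485-5p, with 35, 15 and 16 reads in d/d and 2, 10 and 6 in fl/fl.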

How the data were processed

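Small RNA libraries of 3 B-cell and 9 MEF samples were used, and groups were taken from the sample titles. Per the labels' protocols, total RNA with spike-ins was gel purified and NEBNext small RNA libraries were made. The deposited signals are read numbers of mature miRNAs, each divided by its library's size factor. Per the submitters' processing notes DESeq2 was used (no version), while aligner, miRNA annotation and build are not stated. Of the B-cell values 100% were whole multiples of 1 step within 0.0001, so reads were recovered. The deposited tables also hold rlog values on a log2 scale, used only as an alternative. Left out were 42 columns, the MEF rlog values and the miR-290~295 tables.

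B-cell differences are log2((d/d + 1)/(fl/fl + 1)) for miRNAs with a mean of at least 10, with exact conditional (Clopper-Pearson) 95% intervals of the read ratio, scipy 1.17.1. A count of 0 was set to 3 for bounds. MEF were fitted with limma 3.58.1 in R 4.3.3, on log2(normalized count + 1) with the trend option, the 9 libraries sharing 1 spread, and Benjamini-Hochberg adjustment at 0.05. The MEF columns of fl/fl and OV were used by group, since their numbers match no label. The limma step was checked on simulated data. TMM scaling came from edgeR 4.0.16. Sequences and gene positions are RefSeq's in GRCm38.p6, with a sequence for 428 of the 476 miRNAs.

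Named were all members of miR-17~92 and its paralogs, the 12 largest differences each way, the 10 most abundant miRNAs, up to 4 members of highest mean from each other list, and the 3 on each side of the minimum. The members and lists were chosen with earlier results of these data known. Alternatives were other scalings, pseudocounts, minimums, rlog values, a neighbour distance of 50 kb and, in MEF, each d/d and fl/fl library left out.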

Additional observations from a re-analysis of the deposited data

Results flagged for a closer look

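Of 44 named miRNAs past 2-fold in B cells and kept in MEF, 14 differed the other way in MEF, where all 3 d/d MEF libraries lay beyond all 3 fl/fl ones. The difference between the cell types was not tested, since B cells have 1 library a side. Since the MEF values chose these 14, they are given with no test. The MEF difference farthest from 0 among the 14 was that of miR-218-5p, a neural and mesenchymal miRNA, at 2.73 on the log2 scale in B cells and −1.90 ± 0.11 in MEF (limma log2 ± SE). It had 117 reads in d/d B cells and 14 in fl/fl ones. MiR-1968-5p was at 3.49 in B cells and −1.34 in MEF.

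The miR-221 and miR-222 products were on opposite sides together, with B-cell differences of 3.92 for miR-222-3p, 3.83 for miR-221-3p and 3.77 for miR-221-5p. Their MEF differences were −0.73, −1.17 and −0.67. MiR-676-3p was at 5.04 in B cells and −0.60 in MEF, with 1 read in fl/fl B cells. The fibroblast miRNAs miR-199a-3p, miR-199b-3p and miR-199a-5p were at 2.13, 2.12 and 1.91 in B cells, and at −0.81, −0.81 and −0.35 in MEF. MiR-125a-5p was at 2.68 in B cells and −0.64 in MEF, the muscle miRNA miR-206-3p at 2.15 and −0.81, and miR-34c-5p at 1.97 and −0.90. MiR-146a-5p was at 1.99 in B cells and −0.25 in MEF, and miR-155-3p at −1.01 and 0.81.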

How the results depend on the processing

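With 1 B-cell library a side the spread between libraries is unknown, and depth limits miRNAs of few reads. No paired analysis was possible because the B-cell groups hold 1 library each and the MEF fl/fl and OV columns match no replicate number of the labels. Main counts were 77 higher and 86 lower. They were 149 and 148 without a minimum, 28 and 34 with a minimum mean of 100, and 41 and 26 with rlog values, which shrink differences of low counts; higher miRNAs were 47.2% of those called in the main setting, 61.2% with rlog values and 59.4% when scaled by the total of listed reads. Scaled by that total, the log2 difference of the cluster's total was −5.05 in place of −5.31, and those of the miR-17 and miR-20a, miR-18a, miR-19 and miR-92a seeds were −1.64, −1.04, −4.75 and −1.54. With medians re-centred the miR-17 and miR-20a seed was at −1.88 and the miR-92a seed at −1.79. With a minimum mean of 100, 16 polycistronic miRNAs were higher and 10 lower, and 10 monocistronic ones were higher and 13 lower. MEF gave 283 lower with spike-in scaling against 183, and leaving out each of the 6 d/d and fl/fl MEF libraries in turn gave 182 to 195 higher and 154 to 170 lower. Of 125 single miRNAs, none of the 54 past 2-fold changed sign under the alternatives run, and 20 of the 71 within 2-fold did, 18 of them when scaled by that total. Of 49 named miRNAs past 2-fold, 9 were within it with rlog values, among them miR-93-3p (0.98) and miR-146b-5p (−0.83), and miR-18b-3p was at −0.98 scaled by that total and −0.74 with rlog values. Beyond what the settings themselves change, the cause was not tested.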

Other observations

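Further groups of miRNAs were also compared between d/d and fl/fl B cells. In the miR-15 and miR-16 family, which represses Bcl2 and cyclins, 2 of 11 were higher and 2 lower, with miR-16-5p at 8997, 7109 and 8466 normalized counts in d/d, fl/fl and OV and miR-15b-5p at 1083 (d/d), 937 (fl/fl) and 963 (OV) normalized counts. Of 8 epithelial miRNAs 2 were lower and none higher, and miR-203-3p, a keratinocyte miRNA, had 10174 normalized counts in d/d against 9230.3 in fl/fl and 6685 in OV. MiR-200b-3p, which holds epithelial identity by repressing ZEB factors, had 580.4, 1094 and 1010.0 normalized counts in d/d, fl/fl and OV, and miR-200c-3p had 1387 (d/d), 1272 (fl/fl) and 1495 (OV) normalized counts. In the miR-130, miR-301, miR-148 and miR-152 group 1 of 10 was higher, and miR-148b-3p had 23533 normalized counts in d/d against 20316 in fl/fl and 14336 in OV. The liver miRNA miR-122-5p had 453, 494 and 793 normalized counts in d/d, fl/fl and OV, and the muscle miRNA miR-206-3p had 179 (d/d), 39.6 (fl/fl) and 25.5 (OV) normalized counts, so the former was highest in OV and the latter highest in d/d. Of miR-466i-5p, from the Sfmbt2 intron, there were 322 normalized counts in d/d against 337 in fl/fl and 567 in OV.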
